A study of Mus musculus with 6 samples.

Results

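The acute-phase and inflammatory mediators described here are 10 genes, Saa3, Il6, Lcn2, Hp, Ptx3, Nos2, Ptgs2, Steap4, Nfkbia and Tnfaip3, of 18193 genes measured. They were taken as the probe sets whose platform annotation gives exactly 1 symbol, equal to a member, which gave 18 of 45037 probe sets. Each gene is read from its brightest probe set, by the mean of all 6 arrays, and the others served as checks. The set was put together because the levels of Saa3 and Il6 were lowest in experiment 1 and highest in experiment 3, so differences between experiments are given for the members as a description, without a test. The comparison of irradiated with control cultures is not part of that rule.

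All cultures were purchased mouse mesenchymal stem cells, which can become bone, cartilage or fat, with no genetic change named in the labels. Every culture, controls included, had received 5 µg/ml insulin, 100 µM isobutylmethylxanthine, 1 µM rosiglitazone and 1 µM dexamethasone again 48 h before the exposure, a mixture widely used to induce fat-cell formation. In each of 3 experiments 1 culture was irradiated for 2 h with a continuous-wave terahertz laser at 2.52 THz, and 1 control culture stood beside it without irradiation at the same 26 to 27 °C. RNA was taken at once and each culture was read on 1 Affymetrix array, so that there were 3 irradiated and 3 control arrays. No culture without the mixture, and none taken at a later time, was compared. The values are RMA values on the log2 scale, where 1 unit is a 2-fold difference. Precision is limited by there being 6 arrays.

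The acute-phase response is the set of secreted proteins that rise during inflammation. The cytokine IL-6 drives it through STAT3, and TNF, IL-1 and Toll-like receptor ligands drive it through NF-kB, a transcription factor held in the cytoplasm by its inhibitor IκBα until that inhibitor is degraded. Fat cells and macrophages of adipose tissue are known sources of several of these proteins outside the liver. Every culture had received the glucocorticoid dexamethasone, and its part in the levels of these genes was not tested.

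The promoter windows of 4 members are shown first, because over the 6 arrays the levels of Saa3, Il6, Nfkbia and Tnfaip3 ran most alike (Pearson r between 0.72 and 0.97 for the 6 pairs, a description over arrays that share 3 experiments). These 4 were chosen after their values were seen. Each line gives the 250 bases before a RefSeq start of the gene (GRCm38.p6), 5′ to 3′ on the strand of the gene. The windows lie at chr7:46715677-46715926 on the minus strand for Saa3 and chr5:30012864-30013113 on the plus strand for Il6. Those of Nfkbia and Tnfaip3 lie at chr12:55492648-55492897 and chr10:19015411-19015660, both on the minus strand. For Saa3 the start used lies inside the annotated gene (chr7:46711998-46719615) and not at its 5′ end. Capitals mark matches to an NF-kB motif, searched as GGG, any 2 bases, and then TTTCC or TTCCC, or to a C/EBP motif, searched as TTGCNNAA, on either strand.
Saa3: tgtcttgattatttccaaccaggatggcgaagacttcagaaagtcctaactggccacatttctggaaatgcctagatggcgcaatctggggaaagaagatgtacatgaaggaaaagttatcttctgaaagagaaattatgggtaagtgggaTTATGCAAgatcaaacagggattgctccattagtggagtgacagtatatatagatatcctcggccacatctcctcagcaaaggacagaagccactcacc
Il6: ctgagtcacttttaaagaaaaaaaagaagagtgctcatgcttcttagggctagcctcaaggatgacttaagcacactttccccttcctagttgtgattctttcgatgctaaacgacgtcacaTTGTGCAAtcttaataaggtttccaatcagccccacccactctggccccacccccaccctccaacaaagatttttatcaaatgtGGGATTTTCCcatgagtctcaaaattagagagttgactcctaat
Nfkbia: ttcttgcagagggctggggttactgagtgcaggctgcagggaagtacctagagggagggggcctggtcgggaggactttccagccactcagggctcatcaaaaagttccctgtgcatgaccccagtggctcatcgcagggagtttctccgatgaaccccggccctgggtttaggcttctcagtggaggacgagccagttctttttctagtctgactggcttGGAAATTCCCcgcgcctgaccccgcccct
Tnfaip3: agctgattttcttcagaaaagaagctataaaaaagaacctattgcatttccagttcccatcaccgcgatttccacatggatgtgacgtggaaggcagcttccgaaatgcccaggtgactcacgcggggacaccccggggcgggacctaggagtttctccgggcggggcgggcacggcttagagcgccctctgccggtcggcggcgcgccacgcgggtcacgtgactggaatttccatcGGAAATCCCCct

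The RefSeq table held a window for 8 of the 10 members, all but Hp and Nos2. An NF-kB motif lay in 4 of the 8, those of Il6, Steap4, Nfkbia and Tnfaip3, and in 2.82% of the 32851 windows of the same length in the table. In Il6 it began 44 bases before the start, in Nfkbia 29 and in Tnfaip3 12. A second window listed for Tnfaip3 held neither motif. The C/EBP motif lay in 6 of the 8, those of Saa3, Il6, Lcn2, Ptx3, Ptgs2 and Steap4, and in 9.56% of all windows. In Saa3 it began 99 and in Il6 128 bases before the start, which for Saa3 is the one inside the annotated gene. In Ptgs2 it is its own reverse complement and matched on both strands. The marked matches do not overlap each other. A match is a run of letters and was not tested as a binding site.

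Of the array set as a whole, the control of experiment 3 stood apart in 1 measure of RNA quality, the 3′ minus 5′ difference of actin and Gapdh. Its 3′ probe set of actin lay 0.68 log2 units above the 5′ one, against 0.50 to 0.57 on the other 5 arrays, and for Gapdh the same difference was 0.11 against -0.10 to -0.08. Array medians lay between 5.01 and 5.05, and 0 pairs of arrays held identical values. The labelled cell type was read from markers: 8 of 9 measured mesenchymal stromal markers reached the median gene level of 6.46, with Thy1 the exception at 3.40 to 4.17. All 7 fat cell markers and 11 of 13 macrophage markers also reached that level, the macrophage exceptions being Fcgr1 and Cd163, against 1 of 8 neutrophil markers (S100a8, at 9.21 to 9.68), 0 of 7 endothelial, 0 of 6 hepatocyte and 0 of 5 T cell markers. In such bulk samples fewer cells of a type and less RNA per cell cannot be told apart. Levels depend on the probes as well as the RNA and are not compared between genes.

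**Figure D1:**
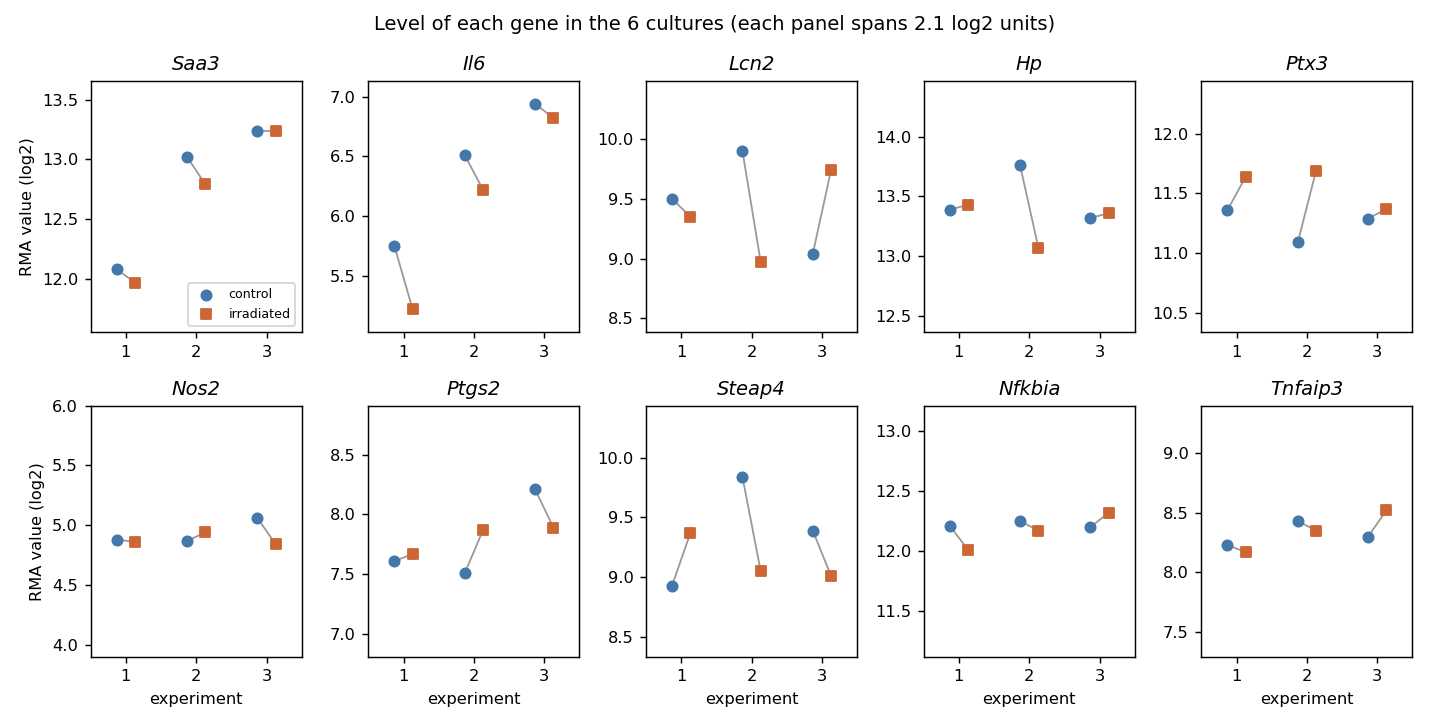
RMA value (log2, vertical axis) of each of the 10 genes in the control (circles) and irradiated (squares) culture of experiments 1 to 3 (horizontal axis), a grey line joining the 2 cultures of an experiment. Saa3 and Il6 differ mainly between experiments, whereas for Lcn2, Hp and Steap4 the control of experiment 2 is the highest array and lies 0.93, 0.69 and 0.79 above its irradiated culture.

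No difference between irradiated and control cultures passed the test in any of the 10 genes. Blocked on experiment, limma called 0 of the 10 after Benjamini-Hochberg adjustment over 18193 genes, with an adjusted p of 0.995 for each, and 0 (0%) of all genes. At an unadjusted p under 0.05 were 2 members, Il6 on the lower and Ptx3 on the higher side, where 603 of all genes (3.31%) reached it. Il6 alone was lower in the irradiated culture in all 3 experiments, as were 12.8% of all genes, and Ptx3 alone was higher in all 3, as were 8.23%. The other 8 had mixed signs or, for Saa3, a difference of 0 in experiment 3. The median difference of the 10 was -0.085 log2 units, beside -0.010 over all genes (SD over genes 0.11). The 95% interval lay within 2-fold in either direction for all 10 and within 1.5-fold for 7.

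**Figure D2:**
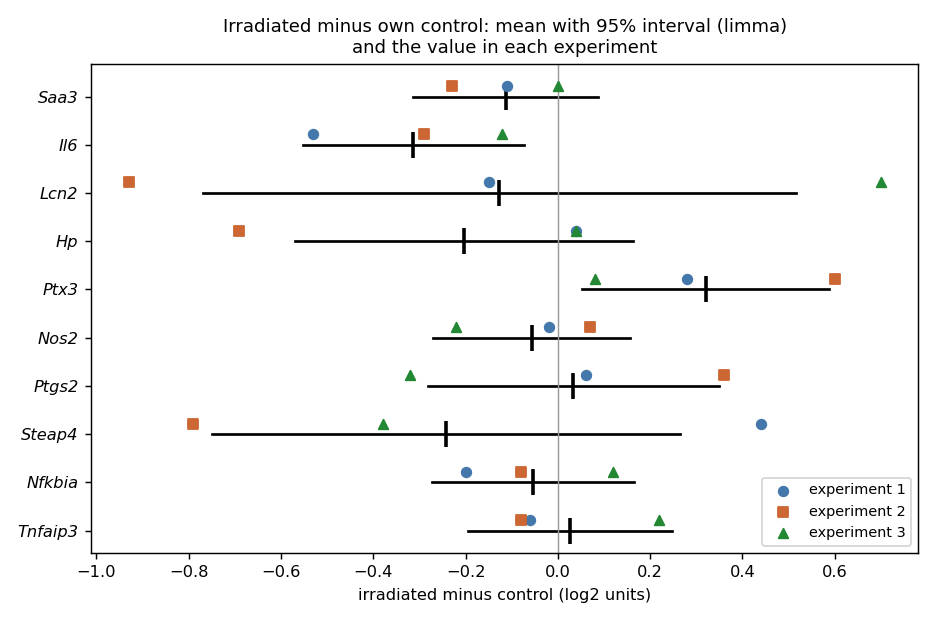
Irradiated minus control (log2 units, horizontal axis) for the 10 genes, with the limma mean (vertical tick), its 95% interval (black bar) and the value in each experiment (coloured symbols above the bar). The intervals of Il6 (-0.55 to -0.074) and Ptx3 (0.051 to 0.59) lie to one side of 0 before adjustment for the number of genes, and those of Lcn2 and Steap4 are the widest.

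Among the cytokines and acute-phase proteins, Il6 encodes interleukin 6, the cytokine that induces acute-phase genes. Its control cultures read 5.75, 6.51 and 6.94 in experiments 1 to 3 and the irradiated ones 5.22, 6.22 and 6.82. Both cultures of experiment 1 were the lowest and both of experiment 3 the highest, and within each experiment the irradiated culture was the lower. The irradiated-minus-control differences of -0.53, -0.29 and -0.12 averaged -0.31 (SE 0.10, n = 3 pairs; unadjusted p 0.0176, adjusted p 0.995 in limma with Benjamini-Hochberg). The difference was smaller than that between experiments: experiment 3 stood 1.40 log2 units, or 2.63-fold, above experiment 1, by 1.19 in the control and by 1.60 in the irradiated cultures. The mean of Il6, 6.24, lay below the median gene, and RMA tends to understate changes of dim probe sets.

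Saa3 encodes serum amyloid A3, an acute-phase apolipoprotein made outside the liver by fat cells and macrophages. It read 12.08, 13.02 and 13.24 in the controls and 11.97, 12.79 and 13.24 in the irradiated cultures. The 3 experiments did not overlap, with experiment 1 lowest and experiment 3 highest, while the irradiated and control groups overlapped. Experiment 3 stood 1.22 log2 units or 2.32-fold above experiment 1, by 1.16 among controls and 1.27 among irradiated cultures, and experiment 2 stood 0.88 or 1.84-fold above it. The irradiated-minus-control differences were -0.11, -0.23 and 0, with a mean of -0.11 (SE 0.084; adjusted p 0.995 in limma with Benjamini-Hochberg). Of the other family members, Saa1 read 3.31 to 3.60, Saa2 3.48 to 4.03 and Saa4 3.89 to 4.47 over the 6 arrays, all below the median gene, with experiment 3 above experiment 1 by 0.15, 0.055 and 0.27.

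Over the members as a set, 4 of 10 (Saa3, Il6, Ptgs2 and Tnfaip3) had both arrays of experiment 3 above both of experiment 1, where 15.8% of all genes did, and 2 (Saa3 and Il6) had the 3 experiments in separate steps from 1 to 3, where 1.58% did. Since the set was picked on this contrast, nothing is read from these counts. A difference of 1 log2 unit or more between experiments 3 and 1, with experiment 3 higher, was seen in 6 of all genes (0.0330%). Saa3 and Il6, on which the set was picked, are among them, so nothing is read from this count either. Batches of culture, RNA or arrays, which the labels do not name, cannot be told apart from the experiment.

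For Lcn2, Hp and Steap4 the 2 cultures of experiment 2 lay far apart, the control being the higher. Lcn2 encodes lipocalin 2, which binds bacterial siderophores and is made by fat cells and neutrophils. It read 9.50, 9.90 and 9.04 in the controls and 9.35, 8.97 and 9.74 in the irradiated cultures, so that the groups overlapped. The irradiated culture was 0.15 lower in experiment 1, 0.93 lower in experiment 2 and 0.70 higher in experiment 3, with a mean of -0.13 (SE 0.27; 95% interval -0.77 to 0.52). This was the widest interval among the members. The control of experiment 3, the array with the high actin 3′ value, was the second lowest for Lcn2. The part of RNA quality in this level was not tested. Without experiment 3 the mean difference was -0.54, and without experiment 2 it was 0.275, of the opposite sign.

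Hp encodes haptoglobin, which captures free haemoglobin and is an acute-phase protein of liver and fat. It read 13.39, 13.76 and 13.32 in the controls and 13.43, 13.07 and 13.36 in the irradiated cultures. The 2 cultures differed by 0.04 in experiments 1 and 3, and by -0.69 in experiment 2, where the control was the highest and the irradiated culture the lowest of the 6. The mean difference was -0.20 (SE 0.15; adjusted p 0.995 in limma with Benjamini-Hochberg), and without experiment 2 it was 0.040.

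Steap4 encodes a metalloreductase of fat cells that reduces iron and copper and is induced by inflammatory cytokines. It read 8.93, 9.84 and 9.39 in the controls and 9.37, 9.05 and 9.01 in the irradiated cultures, with differences of 0.44, -0.79 and -0.38 (mean -0.24, SE 0.21). The control of experiment 2 was again the highest array, 0.91 above the control of experiment 1, the lowest. A dimmer probe set (mean 6.90) gave 0.26, -0.53 and 0.11, with the same sign in experiments 1 and 2 and the opposite sign in experiment 3. Without experiment 2 the mean of the brighter probe set was 0.030.

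Fat cell markers differed in the same direction in that pair of cultures. All 7 measured markers were lower in the irradiated culture of experiment 2, by 0.51 log2 units on average, whereas their means were 0.093 in experiment 1 and 0.039 in experiment 3. Lipe, hormone-sensitive lipase, differed there by -1.17, the lipid droplet protein gene Cidec by -0.74, the fatty acid transporter gene Cd36 by -0.61 and Pparg, the regulator of fat-cell formation, by -0.55. The others differed less, Adipoq by -0.26, Fabp4 by -0.12 and Lpl by -0.12. The share of all genes that were lower in that pair is not given here. The summed level of the 7 markers was 87.02 in the control and 83.45 in the irradiated culture of experiment 2, against 84.30 to 86.35 on the other 4 arrays. Over the groups the sum was 84.30 to 87.02 in controls and 83.45 to 86.35 in irradiated cultures. Lcn2 was higher by 0.70 in experiment 3, where the fat cell markers were at 0.039. The part of fat cell content in these differences was not tested.

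**Figure D3:**
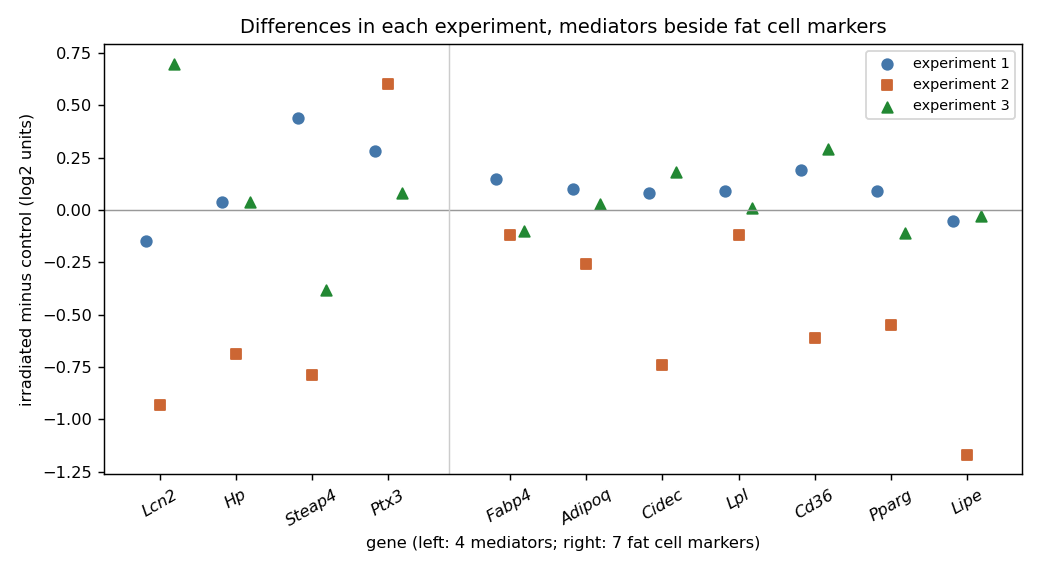
Irradiated minus control (log2 units, vertical axis) in experiments 1 to 3 (symbols) for 4 mediators (left of the line) and 7 fat cell markers (right). In experiment 2 Lcn2 (-0.93), Hp (-0.69) and Steap4 (-0.79) and all 7 fat cell markers lie below 0, and Ptx3 lies at 0.60.

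Ptx3 encodes pentraxin 3, a soluble pattern-recognition protein that also cross-links hyaluronan matrix and is made by stromal cells and macrophages. It read 11.36, 11.09 and 11.29 in the controls and 11.64, 11.69 and 11.37 in the irradiated cultures. Every irradiated culture lay above every control, as in 2.90% of all genes, though in experiment 3 the pair differed by only 0.08. The lowest irradiated value, 11.37, was barely above the highest control value, 11.36. The differences of 0.28, 0.60 and 0.08 averaged 0.32 (1.25-fold, SE 0.11, n = 3 pairs; unadjusted p 0.0262, adjusted p 0.995 in limma with Benjamini-Hochberg). The largest came from experiment 2, and without it the mean was 0.18. The 9 stromal markers averaged 0.18 in experiment 2, with 2 of them below 0 and the collagen gene Col1a1 at 0.72, against 0.058 and 0.053 in experiments 1 and 3. The part of stromal cell content in the values of Ptx3 was not tested. A dim second probe set of Ptx3 (mean 5.06) gave -0.07, 0.08 and -0.03.

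Of the mediator enzymes, Ptgs2 encodes cyclooxygenase 2, which makes the precursor of prostaglandins. It read 7.61, 7.51 and 8.21 in the controls and 7.67, 7.87 and 7.89 in the irradiated cultures. The groups overlapped, and the highest array was the control of experiment 3, the one with the high actin 3′ value. The part of RNA quality in this was not tested. Its differences of 0.06, 0.36 and -0.32 averaged 0.033 (SE 0.13). Experiment 3 stood 0.41 above experiment 1, by 0.60 in the controls and 0.22 in the irradiated cultures, and a dim second probe set (mean 4.32) gave 0.37.

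Nos2 encodes the inducible nitric oxide synthase of activated macrophages. It read 4.88, 4.87 and 5.06 in the controls and 4.86, 4.94 and 4.84 in the irradiated cultures, a range of 0.22 over the 6 arrays and the narrowest among the members. The mean difference was -0.057 (SE 0.089). It lay below the median gene level, and no detection calls were used here, so whether Nos2 was expressed is not settled by these values.

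The NF-kB feedback inhibitors varied least after Nos2. Nfkbia encodes IκBα, which retains NF-kB in the cytoplasm and is itself an NF-kB target. It read 12.21, 12.25 and 12.20 in the controls and 12.01, 12.17 and 12.32 in the irradiated cultures. The controls spanned 0.05, and irradiated minus control was -0.20, -0.08 and 0.12 (mean -0.053, SE 0.091). Its 4 other probe sets had means between -0.013 and 0.027. By the mean of the 2 cultures, experiment 3 stood above experiment 1 in all 5, by 0.090 to 0.27. In the controls alone that difference ran from -0.01, in the brightest probe set among others, to 0.22. In the irradiated cultures it ran from 0.19 to 0.41.

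Tnfaip3 encodes A20, a ubiquitin-editing enzyme that shuts down NF-kB signalling. It read 8.23, 8.43 and 8.30 in the controls and 8.17, 8.35 and 8.52 in the irradiated cultures. Differences were -0.06, -0.08 and 0.22 (mean 0.027, SE 0.093). A dimmer probe set (mean 5.27) stood at 0.28, 0.13 and 0.42, with a mean of 0.28 (SE 0.096; unadjusted p 0.0221 in limma's fit over probe sets, of which 0 passed after adjustment). The 2 probe sets of this gene thus gave different values.

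**Figure D4:**
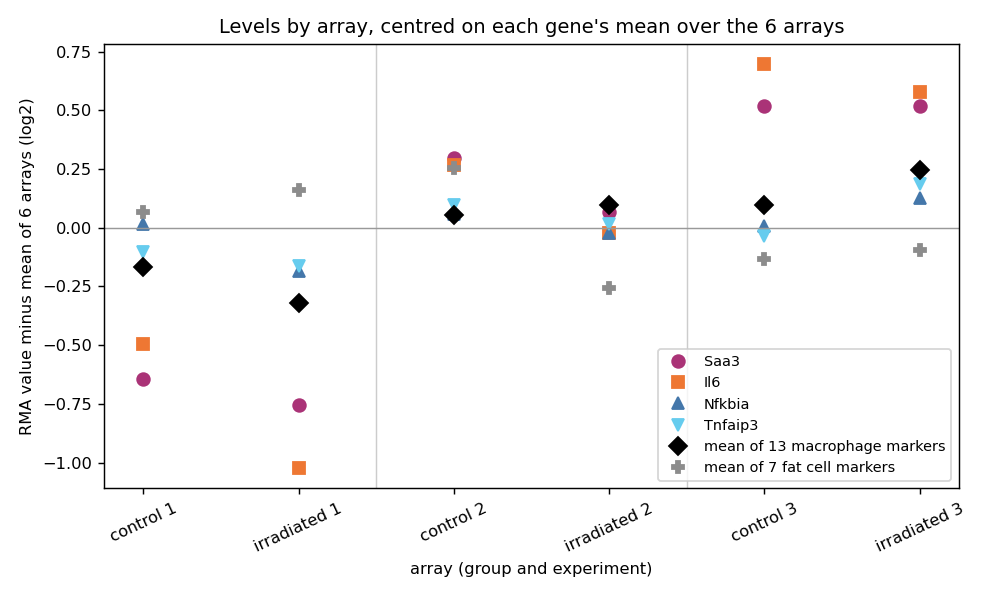
RMA value minus the mean over the 6 arrays (log2, vertical axis) on each array (horizontal axis) for Saa3, Il6, Nfkbia and Tnfaip3, beside the mean of 13 macrophage markers and of 7 fat cell markers centred in the same way. Both arrays of experiment 1 are lowest for Saa3, Il6, Tnfaip3 and the mean of the macrophage markers, but not for Nfkbia. The fat cell mean has its highest and lowest values within experiment 2.

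Macrophage markers differed between the experiments in the same direction as Saa3 and Il6. Of 13 measured markers 12 had both arrays of experiment 3 above both of experiment 1, all but Cd163, beside 15.8% of all genes. The median difference between these experiments was 0.44 log2 units beside -0.0050 over all genes. Mrc1, the mannose receptor, stood 0.71 higher, the integrin gene Itgam 0.63, Csf1r, the receptor for macrophage colony-stimulating factor, 0.48 and Adgre1, or F4/80, 0.47. The summed level of the 13 was 128.51 to 130.50 in experiment 1, 133.40 to 133.93 in experiment 2 and 133.95 to 135.89 in experiment 3. None of them was called in limma's contrast of experiments 3 and 1 with Benjamini-Hochberg adjustment, which called 1 of 18193 genes (0.00550%), with 1171 at an unadjusted p under 0.05. The part of macrophage content in the levels of Saa3 and Il6 was not tested. By group the sum was 130.50 to 133.95 in controls and 128.51 to 135.89 in irradiated cultures, and all 13 were lower in the irradiated culture of experiment 1, where Il6 differed by -0.53 and Saa3 by -0.11. In experiments 2 and 3 the mean of the 13 was 0.041 and 0.15, with 3 and 5 of them lower, while Il6 differed by -0.29 and -0.12 and Saa3 by -0.23 and 0.

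For other markers, both arrays of experiment 3 were below both of experiment 1 for 4 of 7 fat cell (median difference -0.16), 5 of 9 stromal (median -0.15) and 4 of 5 T cell markers (median -0.095), beside 18.2% of all genes. They were above for 0 of each of these lists, beside 15.8% of all genes. Of the neutrophil, endothelial and hepatocyte lists 1 marker each was above, and 1, 0 and 2 were below. Summed levels ran from 39.67 to 40.41 in controls and 40.34 to 41.04 in irradiated cultures for neutrophils, 25.58 to 26.16 and 25.43 to 25.95 for endothelium, 27.92 to 28.61 and 28.39 to 28.83 for hepatocytes, and 23.20 to 24.41 and 23.52 to 24.24 for T cells. Stromal sums were 81.24 to 82.52 in controls and 81.72 to 83.04 in irradiated cultures.

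Genes whose levels ran most like Saa3 over the 6 arrays were sought among 53 genes outside the set that reached the median level and spanned at least 1 log2 unit. They were the lectin gene Clec10a (Pearson r 0.99), the hyaluronan receptor gene Lyve1 (0.99), Pgap6 (0.95), the Fc receptor gene Fcgr2b (0.90) and the metalloprotease gene Adamts15 (0.86). For Il6 they were Clec10a (0.99), Fcgr2b (0.94), Pgap6 (0.94), Lyve1 (0.94) and the chemokine gene Ccl12 (0.89). Clec10a read 8.09, 8.88 and 9.07 in controls and 7.86, 8.56 and 9.06 in irradiated cultures, lowest in both arrays of experiment 1 and highest in both of experiment 3. Lyve1 read 7.02, 8.53 and 8.81 in controls and 7.01, 8.30 and 8.55 in irradiated cultures, and was the gene called between experiments 3 and 1 (1.67 log2 units, adjusted p 0.0317 in limma with Benjamini-Hochberg). These coefficients rest on 6 arrays in 3 pairs and on genes selected for a wide range, and are a description.

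Other genes of the pathways were read from 8 lists, of which 146 of 160 genes were measured. limma with Benjamini-Hochberg adjustment called 0 of the 146 between irradiated and control cultures, with 2 higher and 3 lower at an unadjusted p under 0.05, and 0 between experiments 3 and 1. Both arrays of experiment 3 lay above both of experiment 1 for 31 of the 146 (21.2%), beside 15.8% of all genes, and below them for another 31, beside 18.2%.

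Of 19 measured genes of IL-6 signalling 6 were above and 13 below 0 in irradiated minus control cultures, with a median of -0.037. Socs3, the feedback inhibitor of IL-6 signalling, read 9.88, 9.92 and 9.96 in the controls and 10.07, 10.19 and 10.13 in the irradiated cultures, a mean difference of 0.21 (SE 0.078; unadjusted p 0.0319 in limma). Every irradiated culture was thus above every control, as in 2.90% of all genes, by 0.17 to 0.27 within pairs. Stat3, the transcription factor that IL-6 activates, differed by -0.20 (SE 0.099) and Socs1, a related inhibitor, by -0.20 (SE 0.077; below the median level). Between experiments 3 and 1, Junb, an AP-1 subunit, stood at 0.35, Il6ra, the IL-6 receptor, at 0.29 and Lifr, the receptor for leukaemia inhibitory factor, at -0.39.

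The NF-kB list held 27 measured genes, 12 above and 14 below 0, with a median of -0.010. Zc3h12a, which encodes the RNase regnase-1 that degrades Il6 transcripts, read 5.45, 5.67 and 5.35 in the controls and 5.54, 5.89 and 5.96 in the irradiated cultures (mean difference 0.31, SE 0.11; unadjusted p 0.0330 in limma). The subunit Rel differed by -0.28 (SE 0.093; unadjusted p 0.0198 in limma) and Relb by -0.21 (SE 0.096). Of these 3 only Relb reached the median level. Between experiments 3 and 1, 7 of 27 (25.9%) had both arrays higher, beside 15.8% of all genes, and 3 both lower, beside 18.2%. The largest differences in this list were those of Birc3, an inhibitor of apoptosis (0.27), and Tnip2, an A20-binding protein (0.24). Relb and Bcl3, an atypical IκB protein, followed, level with each other (0.22 each).

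Of 17 ligands, receptors and adaptors that feed NF-kB 9 were above 0, with a median of 0.0067. Il1a differed by 0.18 (SE 0.086), Irak3, an inhibitory kinase homologue, by -0.15 and Il1rap, the shared receptor chain, by 0.14. The cytokine gene Tnf read 4.91, 5.22 and 5.06 in the controls and 4.91, 5.12 and 5.46 in the irradiated cultures, below the median gene, with experiment 3 above experiment 1 by 0.35. Il1r1, the IL-1 receptor, stood 0.32 and Il1rap -0.27 between these experiments.

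Acute-phase genes of the liver type were mostly dim, with 3 of 19 at or above the median level. In irradiated minus control cultures 7 were above and 12 below 0, with a median of -0.020. The bright Serpina3n, a serine protease inhibitor, read 12.33, 12.53 and 12.11 in the controls and 12.40, 12.16 and 11.98 in the irradiated cultures, and between experiments 3 and 1 it stood at -0.32, opposite to Saa3. Lbp, the lipopolysaccharide-binding protein, read 7.97, 7.75 and 7.78 in the controls, from which the irradiated cultures differed by 0.03, -0.09 and -0.71. These gave the largest difference of this list in both contrasts (-0.26, SE 0.15, for irradiation and -0.56 between experiments 3 and 1). Its irradiated culture of experiment 3 was the lowest array. Among dim genes, Itih4 stood at -0.33 between experiments 3 and 1. In irradiated minus control cultures the orosomucoid gene Orm2 differed by 0.25 and the fibrinogen chain Fga by -0.20 (unadjusted p 0.0378 in limma).

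Around Ptgs2, 11 of 22 prostanoid genes were above and 10 below 0, with a median of 0.017. Hpgd, which degrades prostaglandins, differed by 0.36 (SE 0.21), Alox5, a lipoxygenase that makes leukotrienes, by 0.17 and the phospholipase gene Pla2g5 by -0.14. Between experiments 3 and 1 the largest differences were downward, for the prostaglandin receptor Ptger3 (-0.90), prostacyclin synthase Ptgis (-0.68) and Hpgd (-0.66), while Ptgs2 stood at 0.41.

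Around Nos2, 6 of 15 genes of nitric oxide and arginine metabolism were above 0 and 9 below, with a median of -0.033. The endothelial synthase Nos3 differed by -0.26 (SE 0.11), the guanylate cyclase subunit Gucy1a1 by 0.23 and the arginine transporter Slc7a2 by 0.18. Between experiments 3 and 1 the largest differences in this list were those of Ddah1, which degrades methylarginines (-0.25), the arginase Arg2 (0.20) and Slc7a2 (-0.17). For Arg2 the difference was -0.07 in the controls and 0.46 in the irradiated cultures. Arg2, Nos3 and Gucy1a1 lay below the median level.

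Among 16 genes of iron and haem handling, the field in which Lcn2, Hp and Steap4 act, 10 were above and 6 below 0, with a median of 0.045. Cd163, the receptor that takes up haptoglobin-haemoglobin complexes, differed by 0.20 (SE 0.18; 0.77 in experiment 3), the ferroxidase Heph by 0.20 and the receptor Lrp1 by 0.11. The iron exporter Slc40a1 read 10.95, 11.15 and 11.39 in the controls and 10.95, 11.17 and 11.19 in the irradiated cultures. It was 0.34 higher in experiment 3 than in experiment 1, a contrast in which Cd163 stood at 0.41 and Heph at -0.32. For Cd163, which lay below the median level, that difference was -0.11 in the controls and 0.92 in the irradiated cultures.

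Of 11 genes for pentraxins and the matrix and complement partners of Ptx3, 5 were above and 5 below 0. Itih1 and Itih2, hyaluronan-associated inhibitor chains, differed by -0.21 and -0.20, and the hyaluronan synthase Has1 by -0.19. The complement genes C1qc, C1qa and C1qb, whose products bind pentraxins and are made by macrophages, stood 0.73, 0.70 and 0.60 higher in experiment 3 than in experiment 1, whereas Ptx3 stood at -0.17. C1qa read 11.60, 11.94 and 12.04 in the controls and 11.35, 12.08 and 12.30 in the irradiated cultures. Its arrays of experiment 1 were the lowest of the 6, as for Saa3 and Il6.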

How the data were processed

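The authors deposited a log2 value for every probe set on each array. Per the submitters' processing notes, the authors used RMA, affy and limma. Their version is not given in the sources used here. The log base is stated nowhere in the labels, and the range of 1.73 to 14.53 is that of RMA log2 values. RMA equalises the distributions of the arrays, which hides any shift shared by most transcripts.

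Of 45101 probe sets 64 were control probe sets. The other 45037 were tested without a filter, 34945 with 1 symbol, 932 with several and 9160 with none in the platform annotation. Of the 34945, 34741 matched a current gene table, with 0 symbols changed. limma 3.58.1 in R 4.3.3 (lmFit, eBayes) fitted irradiation and experiment number, and calls were made at a Benjamini-Hochberg adjusted p under 0.05. Pairing by number follows the series' design text, where every irradiated culture has a neighbouring control. The deviations of the 2 arrays of an experiment from the means of their groups correlated at 0.087, -0.065 and -0.029. The same fit gave the contrasts between experiments, each experiment being 2 cultures. Scripts were tested on simulated data.

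The members and gene lists were chosen with earlier results of these data known. From each list of pathway genes the text names up to 3 genes with the largest difference between irradiated and control cultures and up to 3 between experiments 3 and 1. It also names the Saa genes and, for Saa3 and Il6, the 5 most alike genes. Fcgr1, Cd163, Thy1, S100a8, Bcl3 (a tie) and the other marker genes with values were named after those were seen. Alternatives were no block, a random block, a trended and robust eBayes, a filter at the median level, other choices of probe set and leaving out experiments or arrays. Detection calls and hybridization dates were not used here.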

Additional observations from a re-analysis of the deposited data

How the results depend on the processing

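No setting called a member or any gene between irradiated and control cultures. limma without the replicate block called 0 genes and 0 probe sets, with 649 and 1841 at an unadjusted p under 0.05, and 0 with any other alternative. Over 88 recalculated differences of the members, 79 kept their sign and 9 did not, and the smallest adjusted p was 0.926 (limma, Benjamini-Hochberg). Many of the 79 could not have changed sign. Without the block, with a random block, with the other eBayes or with the level filter, each difference stayed as it was. So did those of the 5 members with 1 probe set under other choices of probe set. All 9 changes came from leaving out an experiment or from another probe set. With 1 experiment left out, Saa3 ranged from -0.17 to -0.055, Il6 from -0.41 to -0.21 and Ptx3 from 0.18 to 0.44, on 1 side of 0, whereas Lcn2 ranged from -0.54 to 0.28, Hp from -0.33 to 0.040, Nos2 from -0.12 to 0.025, Ptgs2 from -0.13 to 0.21, Steap4 from -0.59 to 0.030, Nfkbia from -0.14 to 0.020 and Tnfaip3 from -0.070 to 0.080. With the probe set of highest variance Ptgs2 stood at -0.023 and Nfkbia at 0.017, each read there by another probe set. Without the block the unadjusted p of Il6 was 0.475 and that of Ptx3 0.0196 (limma).

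Counts between experiments moved more. For experiments 3 and 1 limma called 3 genes with irradiation left out of the model, 5 with a trended and robust eBayes, 2 at or above the median level and 4 with the mean of all probe sets, against 1, and from 0 to 0 with any of the 6 arrays left out, the control of experiment 3 included. For experiments 2 and 1 these settings called 1, 2, 1 and 1, against 0 with 1126 at an unadjusted p under 0.05. For experiments 3 and 2 every setting run called 0, with 620 at an unadjusted p under 0.05 in limma. The causes were not tested. Dim probe sets, among them those of Il6 and Nos2, limit what can be seen, because RMA compresses low values.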
